A study of Saccharomyces cerevisiae with 8 samples.

Results

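The genes of the cell division cycle and of DNA replication described here were 56 genes chosen by name: cyclins, the cyclin-dependent kinase and its regulators, transcription factors of the cycle, mitotic exit enzymes, and the proteins that license origins, copy DNA and supply deoxynucleotides. They were 56 of 5444 genes measured in all, and each had 1 probe set in the platform annotation. None of these probe sets belonged to the types that can also hybridize to related transcripts, although the closest paralogues share sequence. The arrays were of the Affymetrix type Yeast Genome 2.0, hybridized with RNA of *Saccharomyces cerevisiae* CEN.PK113-11C, a haploid laboratory strain with mutations in *HIS3* and *URA3* that both strains of the study shared. The L-UBB+1 strain carried a plasmid (p413 TEF UBB+1) from which the constitutive TEF promoter drives low expression of UBB+1, a frameshifted human ubiquitin with an extended C terminus. The control strain carried the empty plasmid. Cultures in shake flasks with synthetic glucose medium were sampled during exponential growth (EX) and on day 6 (D6), the stationary phase. There were 2 biological replicates of each group, L-UBB+1 at EX, control at EX, L-UBB+1 at D6 and control at D6, and so 8 arrays. Levels are log2 values as deposited, on which a difference of 1 is a 2-fold change, and the small number of arrays limits the precision.

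In the yeast cell cycle, the kinase Cdc28 is switched from task to task by cyclins that come and go. G1 cyclins commit the cell to division at Start, S-phase cyclins trigger replication, and mitotic cyclins drive nuclear division until they are destroyed at mitotic exit. Transcription is part of the switch: the factors SBF and MBF turn on G1 cyclins and many replication genes at the G1/S boundary, and Mcm1 with the forkhead proteins Fkh1 and Fkh2 turns on the *CLB2* cluster in G2 and mitosis. Cells that run out of nutrients leave the cycle in G1, and transcripts of G1 and mitotic cyclins are known to be scarce in such resting cells.

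Some arrays did not look as their labels describe. Over the 56 members, replicate arrays of 1 group differed by an SD of 0.17 to 0.213 on the log2 scale and arrays of different strains by 1.012 to 1.177. In the L-UBB+1 strain, EX replicate 1 and D6 replicate 2 differed by an SD of only 0.076, and EX replicate 2 and D6 replicate 1 by 0.123, both less than any replicate pair. Control EX replicate 2 and D6 replicate 2 also differed by 0.123. Over all genes the SD of these 3 pairs was 0.086, 0.143 and 0.248, and that of the closest replicate pair 0.202. *SPG4*, a gene needed for survival in stationary phase, was at 12.25 and 12.44 on the L-UBB+1 EX arrays, against 7.44 and 6.82 on the control EX arrays. It was at 12.43 and 12.31 on the L-UBB+1 D6 arrays, against 6.57 and 6.46 on the control D6 arrays. It was thus high on arrays labelled exponential and low on control arrays labelled stationary. Of 9 stationary phase markers, 4 were called higher and none lower in the L-UBB+1 strain at EX, while 4 were called higher and 1 lower at D6. At EX the arrays of 6 markers lay higher throughout and those of 2 lower. *SNO1* lay between 7.83 and 8.0 on the L-UBB+1 arrays, below the 8.91 to 9.61 of the control arrays. The ranges of the strains overlapped for *SNZ1* (11.32 to 11.78 against 11.12 to 11.66), *CTT1* (7.99 to 8.67 against 6.98 to 9.22) and *HSP12* (11.99 to 12.57 against 9.98 to 12.09). An exchange of labels between the L-UBB+1 EX and control D6 arrays cannot be told apart from a strain difference by the arrays alone, and the study's other assays were not used here. The groups keep their labels below. With those labels exchanged, each difference between strains would be one between phases, and each difference between phases one between strains. The mating type stated for the strain was alpha. The alpha-factor genes *MF(ALPHA)1* and *MF(ALPHA)2* lay between 5.90 and 6.47 and between 5.93 and 6.62 over the 8 arrays, near the lowest value of the table (5.081). The alpha-cell gene *STE3* lay between 7.41 and 7.5 on the L-UBB+1 arrays and between 6.29 and 6.82 on the control arrays, and *SAG1* between 8.14 and 8.29 on the L-UBB+1 arrays and between 7.07 and 7.31 on the control arrays. Of the 5 a-cell genes, *STE2*, *MFA2*, *BAR1* and *AGA2* were called lower in the L-UBB+1 strain, with log2 fold changes of -2.5, -2.34, -1.95 and -1.49 at EX. *STE2* lay between 7.55 and 7.83 on the L-UBB+1 arrays and between 9.99 and 10.74 on the control arrays, and *BAR1* between 6.34 and 6.4 on the L-UBB+1 arrays and between 8.08 and 8.93 on the control arrays. *MFA1* lay between 8.9 and 9.8 over all arrays and was not called. *ACT1*, the actin gene that often serves as reference, lay between 9.66 and 9.92 on the L-UBB+1 arrays and between 11.91 and 12.09 on the control arrays.

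The members moved in both directions between the strains. Calls required a change of 2-fold or more together with an adjusted p below 0.001 in limma, where the Benjamini-Hochberg adjustment ran over all 5444 genes. At EX, 6 of the 56 members were called higher in the L-UBB+1 strain and 12 lower, beside 17.2% and 17.1% of all genes. For D6 the members numbered 3 higher and 12 lower, beside 17.9% and 18.5% of all genes. The share of members called was 32.1% at EX and 26.8% at D6, beside 34.3% and 36.4% of all genes, so that counts alone do not set the members apart. Their median log2 fold change was -0.22 at EX and -0.34 at D6, beside 0.00 and -0.01 for all genes. In total 3 members were called higher at both phases (*FKH1*, *ORC6* and *RNR3*) and 11 lower at both. Of the rest, 4 were called at EX alone, 1 at D6 alone, 37 at neither, and 0 in opposite directions. Among the 5444 genes measured, 819 rose by these calls at each phase and 812 fell at each. Another 236 passed at EX alone, 348 at D6 alone, 3229 at neither, and 0 in opposite directions. At the lower bar of an adjusted p under 0.05, 40 members differed at EX and 44 at D6, beside 74.7% and 76% of all genes. The arrays of the strains overlapped for 6 members at EX (19 lay higher and 31 lower throughout) and for 3 at D6 (19 and 34). Over all genes, 88.7% and 87.5% had no overlap. The count of higher members at EX depended on 4 genes just past the fold threshold, *CLB3*, *ORC1*, *ORC6* and *POL12*. With each array centred on its median instead, 2 members were called higher and 12 lower at EX, beside 16.2% and 17.8% of all genes. Fewer members were called higher at EX without control EX replicate 1, control EX replicate 2 or L-UBB+1 EX replicate 1. In those fits fewer of all genes were called higher as well, and each left 1 array in a group. Sets of L-UBB+1 arrays were also left out, a choice made after seeing the data. The first set was EX 2 and D6 1 together, the other EX 1 and D6 2 together. Either way 1 L-UBB+1 array was left at each phase. Fewer members were then called in both directions at both phases, and fewer of all genes as well.

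**Figure D1:**
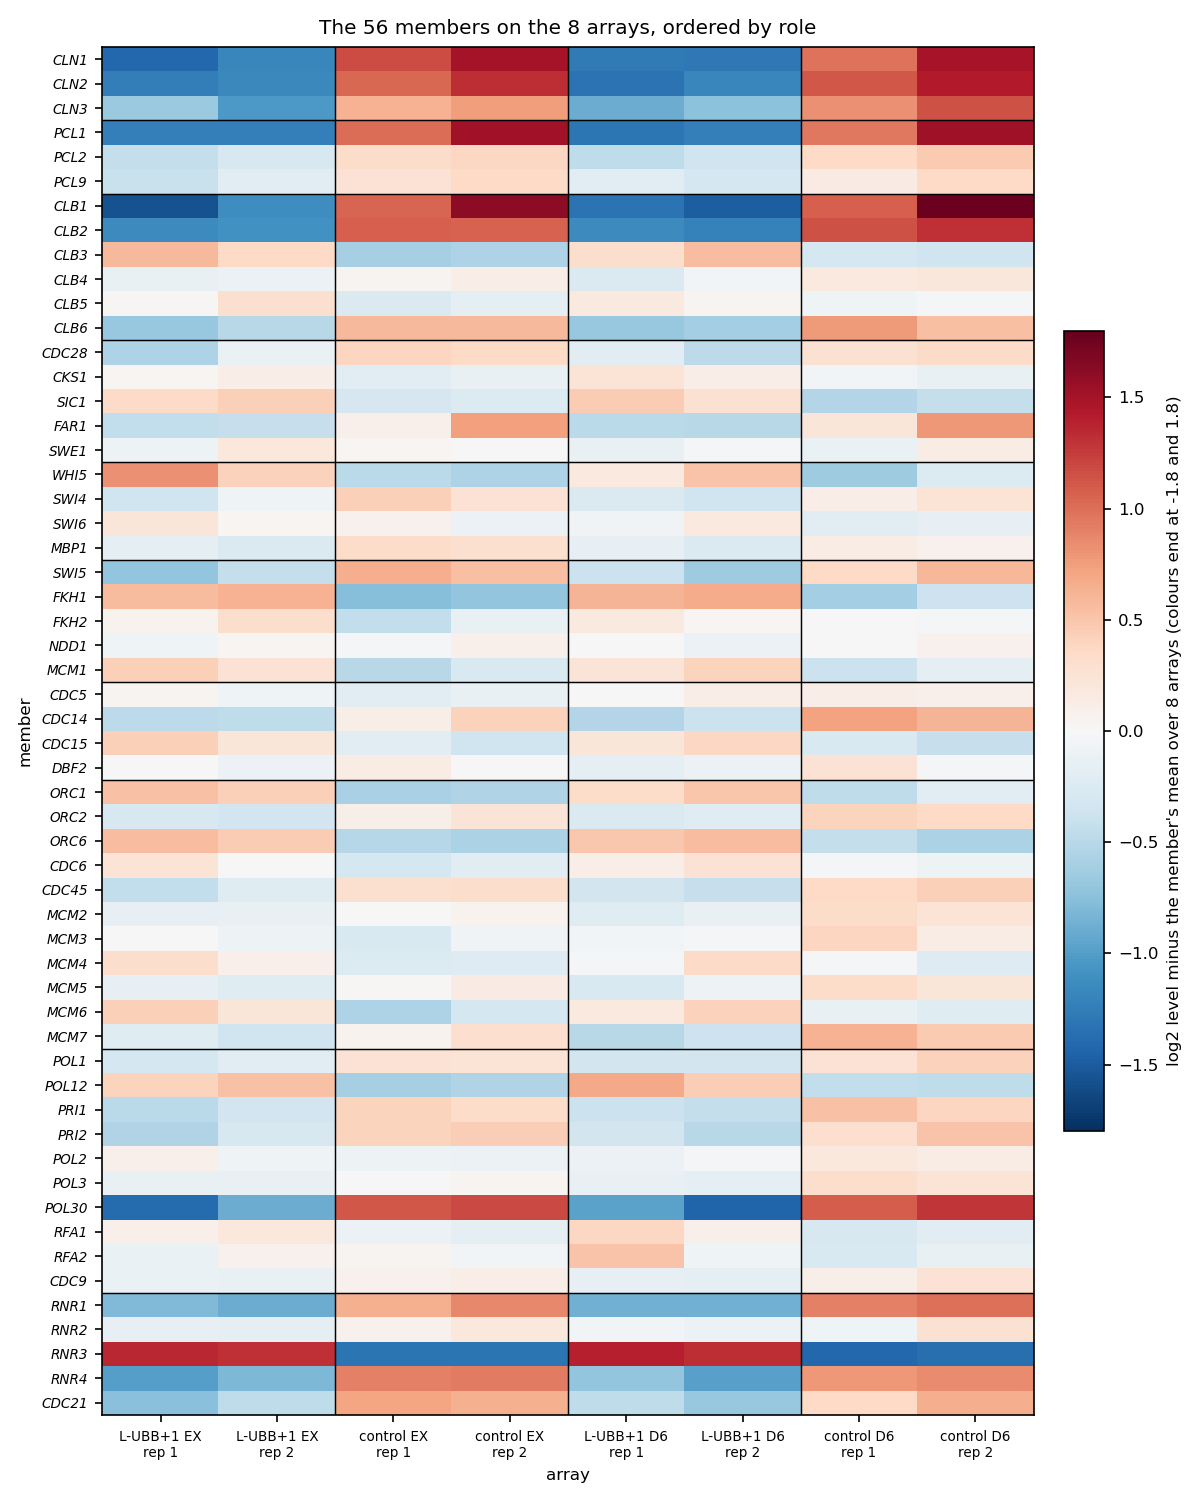
Colour map of the 56 members (rows, grouped by role) on the 8 arrays (columns), as the log2 level minus the member's own mean over the arrays. The L-UBB+1 columns of EX and D6 resemble each other, as do the control columns, and the deepest colours belong to *CLN1*, *CLN2*, *PCL1*, *CLB1*, *CLB2*, *POL30* and *RNR3*.

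Most of the G1 and mitotic cyclins among the members were lower in the L-UBB+1 strain. Of the 12 cyclins chosen, 7 were called lower at EX and 1 higher, beside 17.1% and 17.2% of all genes. At D6, 7 were called lower and none higher, beside 18.5% and 17.9% of all genes. The medians of their log2 fold changes were -1.35 and -1.55. All 3 G1 cyclins were called lower at both phases. *CLN1* was at 5.83 and 6.07 in the L-UBB+1 strain at EX, against 8.42 and 8.74 in the control strain. Its D6 levels were 5.97 and 5.95, against 8.22 and 8.73. No array of one strain reached the range of the other, and the level was 6.18-fold lower at EX (log2 fold change -2.63, standard error 0.19, adjusted p = 1.38e-05 by limma, n = 2 arrays per group). Its paralogue *CLN2*, which shares the work of committing cells to division, was lower as well. *CLN2* was at 6.17 and 6.26 in the L-UBB+1 strain, against 8.45 and 8.74 in the control strain, at EX. At D6 the values were 6.09 and 6.24, against 8.53 and 8.85. The log2 fold changes of *CLN2* were -2.38 and -2.53. *CLN3*, the upstream cyclin that senses growth and starts the G1/S programme, was at 6.85 and 6.48 in the L-UBB+1 strain at EX, against 8.14 and 8.26 in the control strain. The D6 values were 6.62 and 6.77, against 8.33 and 8.66. Its fall was smaller (-1.53 and -1.8 on the log2 scale), and the EX call was lost without control EX replicate 1 or 2 (adjusted p up to 0.00142). The arrays measure the whole culture, so fewer cells in a given stage and less RNA per cell cannot be told apart. The lowest levels lay close to the lower end of the scale. Averaged over the 8 arrays, each cyclin called lower was under 7.671, among the dimmest genes.

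Among the cyclins that pair with the kinase Pho85, *PCL1*, a G1/S-expressed cyclin linked to polarized growth, fell at both phases. It was at 5.95 and 5.94 in the L-UBB+1 strain, against 8.18 and 8.69 in the control strain, at EX, a 5.60-fold lower level (log2 fold change -2.49, standard error 0.22). At D6 it was at 5.88 and 5.95, against 8.13 and 8.70. *PCL2*, a cyclin closely related to *PCL1*, was at 5.88 and 6.03 in the L-UBB+1 strain, against 6.65 and 6.69 in the control strain, at EX. At D6 the values were 5.86 and 5.95, against 6.67 and 6.78. Its arrays did not overlap between the strains either, but its log2 fold changes of -0.71 and -0.82 were under the fold threshold. *PCL9*, expressed between mitosis and G1, had -0.61 and -0.51 and was not called. The Pho85 cyclins outside the members, given here after their values were seen, included more that were higher. *PCL10* (2.18 and 2.23) and *CLG1* (1.82 and 1.35) were called higher at both phases and *PHO80* (0.89 and 1.00) at D6, while *PCL5* (1.22 and 1.09), *PCL6* (-0.92 and -0.51), *PCL7* (-0.13 and 0.27) and *PCL8* (0.28 and 0.65) were not called.

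The B-type cyclins parted by member. The mitotic cyclins *CLB1* and *CLB2* fell most. *CLB1* was at 6.03 and 6.48 in the L-UBB+1 strain, against 8.64 and 9.21 in the control strain, at EX. Its D6 levels were 6.27 and 6.12, against 8.67 and 9.37. The log2 fold change of *CLB1* was -2.67 at EX and -2.82 at D6. Its arrays spread widely (standard error 0.28), and its EX call was lost without control EX replicate 2 (adjusted p = 0.00102). *CLB2*, the main mitotic cyclin, was at 5.62 and 5.68 in the L-UBB+1 strain, against 7.85 and 7.83 in the control strain, at EX. At D6 its values were 5.63 and 5.55, against 7.92 and 8.09. Its fall was measured tightly, at 2.19 on the log2 scale (standard error 0.10, adjusted p = 2.21e-06 by limma). *CLB3*, which helps to build the spindle, went the other way. It was at 8.99 and 8.76 in the L-UBB+1 strain, against 7.80 and 7.85 in the control strain, at EX, 2.06-fold higher. The D6 values were 8.72 and 8.96, against 8.09 and 8.05, and the log2 fold change of 0.77 was under the threshold. The *CLB3* call at EX was lost with arrays centred on their medians (log2 fold change 0.998) and without control EX replicate 1 or 2 or L-UBB+1 EX replicate 1 (adjusted p up to 0.00191). Its paralogue *CLB4* was not called: at EX it was at 6.89 and 6.91 in the L-UBB+1 strain, against 7.07 and 7.14 in the control strain, a log2 fold change of -0.20 with a 95% interval of -0.44 to 0.04. At D6 *CLB4* was at 6.76 and 6.97, against 7.20 and 7.23.

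The S-phase cyclins also differed from each other. *CLB6*, which acts early in S phase, was at 6.52 and 6.71 in the L-UBB+1 strain, against 7.79 and 7.79 in the control strain, at EX. At D6 it was at 6.53 and 6.59, against 7.97 and 7.75, and its log2 fold changes of -1.18 and -1.30 were called. *CLB5*, its paralogue and the main S-phase cyclin, was at 8.24 and 8.50 in the L-UBB+1 strain, against 7.96 and 8.06 in the control strain, at EX. At D6 the *CLB5* values were 8.4 and 8.26, against 8.14 and 8.18. Its log2 fold changes were 0.36 (95% interval 0.09 to 0.63) and 0.17 (-0.10 to 0.44). Thus within each of the pairs *CLB3* with *CLB4* and *CLB5* with *CLB6*, 1 member was called at EX and the other was not, while *CLN1* and *CLN2* and likewise *CLB1* and *CLB2* were called in the same direction. The difference of the changes within a pair was not tested. Without either set of L-UBB+1 arrays named above, the highest adjusted p at EX was 0.00065 for *CLN1*, 0.00039 for *CLN2* and 0.000171 for *CLB2*, all still called, and 0.00131 for *PCL1*, 0.00134 for *CLN3*, 0.00229 for *CLB1*, 0.00107 for *CLB3* and 0.00132 for *CLB6*, whose EX calls were lost. At D6 those of *PCL1* (0.00127) and *CLB1* (0.00141) were lost.

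**Figure D2:**
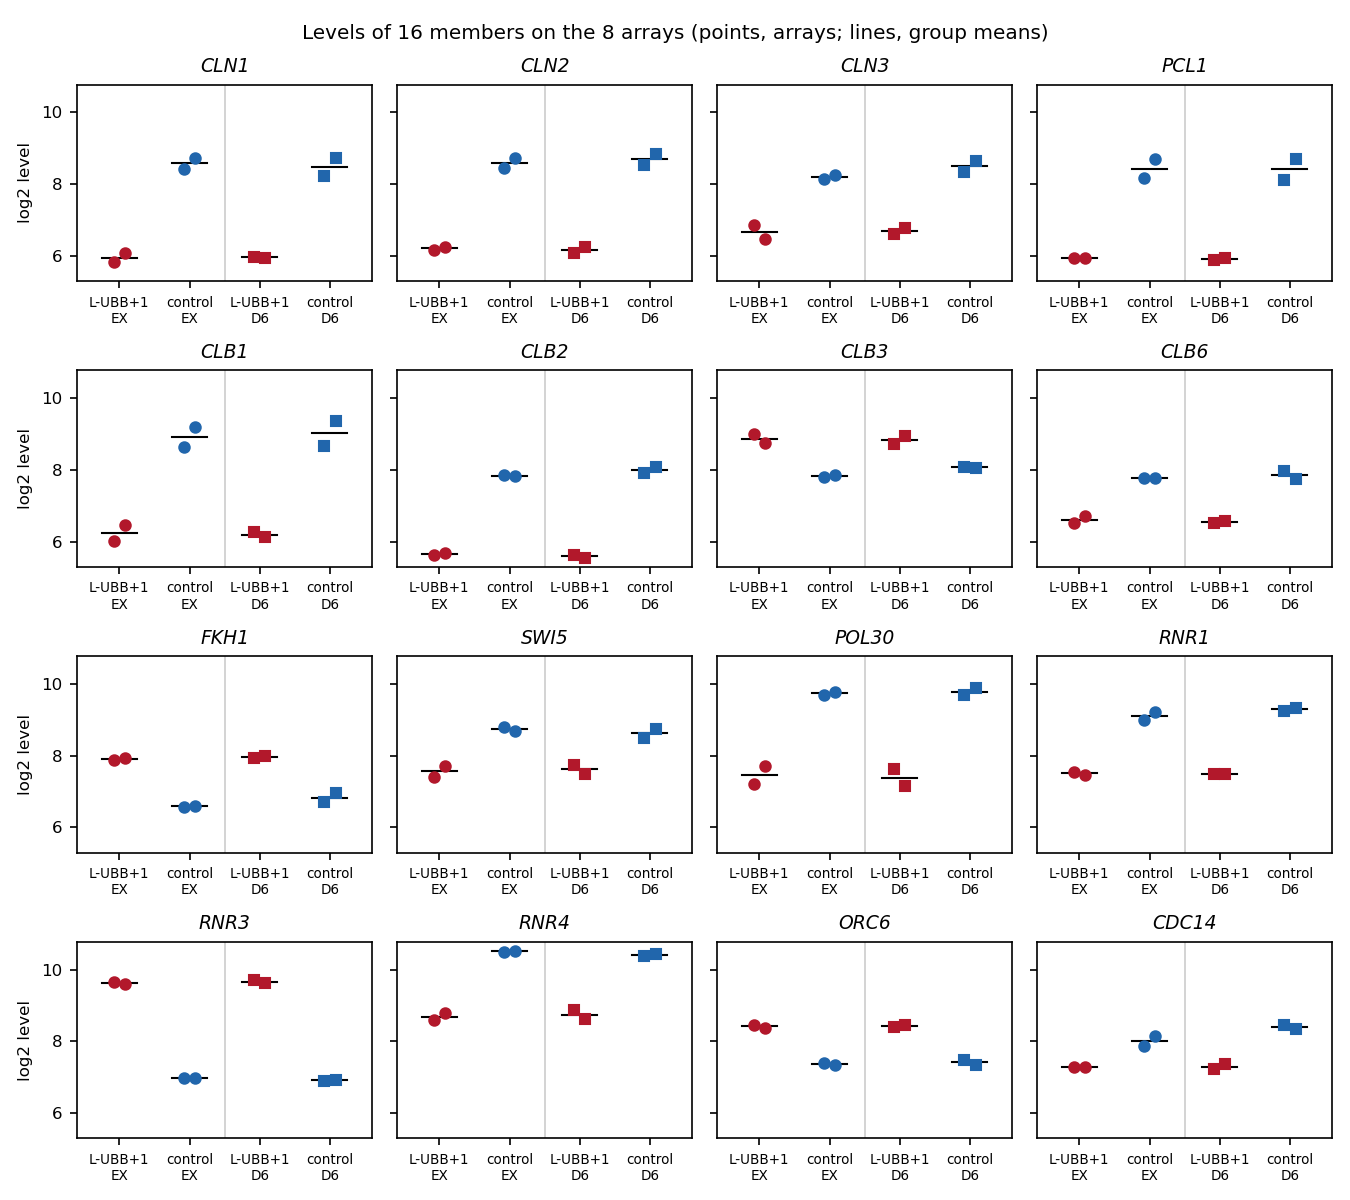
Log2 levels of 16 members on each array, with red for the L-UBB+1 strain and blue for the control strain, circles for EX and squares for D6, and a black line at the mean of the 2 arrays. In every panel the red and blue points lie apart at both phases, with the L-UBB+1 points lower for 12 of the genes and higher for *CLB3*, *FKH1*, *RNR3* and *ORC6*.

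The kinase itself and its direct regulators were not called at either phase. *CDC28*, which encodes the cyclin-dependent kinase, had a log2 fold change of -0.71 at EX, and of -0.64 at D6 (95% intervals -1.09 to -0.33 and -1.02 to -0.26). *CKS1*, a small subunit of the kinase complex, had 0.25 and 0.28. *SIC1*, the inhibitor that holds S-phase cyclin complexes in check during G1, had 0.66 and 0.84, with adjusted p of 0.000644 and 0.00017 by limma but a change under the fold threshold. *FAR1*, the inhibitor that arrests cells in response to pheromone, had -0.84 and -0.98. The control arrays of *FAR1* spread between 7.14 and 7.83, the L-UBB+1 arrays between 6.55 and 6.64. *SWE1*, the kinase that delays mitosis, was close to 0, at 0.03 (95% interval -0.28 to 0.34) and -0.10 (-0.41 to 0.21).

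None of the 4 genes of G1/S transcription was called. *WHI5*, whose product represses SBF until Start, came nearest. It was at 7.79 and 7.37 in the L-UBB+1 strain, against 6.47 and 6.41 in the control strain, at EX, 2.20-fold higher with an adjusted p of 0.00113 by limma, just over the threshold. Its D6 levels were 7.14 and 7.48, against 6.32 and 6.71, a log2 fold change of 0.79. The subunits of the factors had smaller differences. *SWI4*, the DNA-binding part of SBF, had -0.56 and -0.50, *MBP1*, that of MBF, -0.53 and -0.31, and *SWI6*, the subunit they share, 0.14 and 0.24.

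Among the factors of G2, mitosis and early G1, *FKH1* rose and *SWI5* fell. *FKH1*, a forkhead factor of the *CLB2* cluster, was at 7.89 and 7.95 in the L-UBB+1 strain, against 6.56 and 6.61 in the control strain, at EX. The D6 values were 7.93 and 8.0, against 6.71 and 6.95. The arrays lay apart at both phases, with log2 fold changes of 1.33 and 1.13 (standard error 0.11, adjusted p = 2.09e-05 and 4.32e-05 by limma). Its paralogue *FKH2*, the forkhead partner of Mcm1, was at 7.46 and 7.70 in the L-UBB+1 strain, against 6.95 and 7.26 in the control strain, at EX. At D6 it was at 7.57 and 7.43, against 7.38 and 7.37, and its log2 fold changes of 0.47 and 0.13 were not called. *SWI5*, which switches on early G1 genes such as *SIC1*, was at 7.42 and 7.71 in the L-UBB+1 strain, against 8.79 and 8.68 in the control strain, at EX. Its D6 levels were 7.75 and 7.5, against 8.50 and 8.74, with an adjusted p of 0.000497 and a log2 fold change of -0.995 just short of the threshold, which it passed with arrays centred on their medians (-1.022). Its EX call was lost without control EX replicate 1 or 2 or L-UBB+1 EX replicate 1 (adjusted p up to 0.00288). Without the same sets of L-UBB+1 arrays the highest adjusted p of *FKH1* was 0.00074 at EX and 0.00131 at D6, so that its D6 call was lost, and that of *SWI5* was 0.00212 at EX. *MCM1*, a general factor that binds with the forkheads, had log2 fold changes of 0.73 and 0.60. *NDD1*, the activator of the *CLB2* cluster, had -0.05 (95% interval -0.28 to 0.17) and -0.10 (-0.33 to 0.13).

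Of the 4 mitotic exit genes, only *CDC14* was called, and only at D6. *CDC14* encodes the phosphatase that reverses Cdc28 phosphorylation. It was at 7.28 and 7.30 in the L-UBB+1 strain at EX, against 7.86 and 8.16 in the control strain. The D6 values were 7.22 and 7.36, against 8.47 and 8.36, a log2 fold change of -1.13 (adjusted p = 9.6e-05 by limma), and the call was lost without control D6 replicate 1 (adjusted p = 0.00136) and without the sets of L-UBB+1 arrays named above (adjusted p up to 0.00252). The polo kinase *CDC5* had 0.15 and -0.04. Of the kinases of the mitotic exit network, *CDC15* had 0.59 and 0.63 and *DBF2* -0.11 and -0.26.

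The genes that license and fire origins had mostly small differences of either sign. Of 11 genes, 2 were called higher and none lower at EX, beside 17.2% and 17.1% of all genes. At D6, 1 was called higher and none lower, beside 17.9% and 18.5%. The subunits of the origin recognition complex, which marks replication origins, went different ways. *ORC1* was at 8.45 and 8.34 in the L-UBB+1 strain, against 7.34 and 7.38 in the control strain, at EX. At D6 the values were 8.25 and 8.41, against 7.46 and 7.71. The log2 fold changes of *ORC1* were 1.04 and 0.74, and only the first was called. *ORC6* was at 8.47 and 8.37 in the L-UBB+1 strain, against 7.40 and 7.35 in the control strain, at EX. At D6 *ORC6* was at 8.4 and 8.47, against 7.49 and 7.35, and it was called at both phases (log2 fold changes 1.04 and 1.02). *ORC2* had -0.49 and -0.62 and was not called. The *ORC1* call was lost without control EX replicate 1 or 2 or L-UBB+1 EX replicate 1 (adjusted p up to 0.00172). For *ORC6* the EX call was lost without L-UBB+1 EX replicate 1. Its D6 call was lost without the control D6 array 2 or the L-UBB+1 D6 array 2. Its log2 fold change was then as low as 0.99 at EX, and 0.95 at D6. With arrays centred on their medians, *ORC1* (0.989 at EX) and *ORC6* (0.995 at EX and 0.992 at D6) also missed the fold threshold. Without the sets of L-UBB+1 arrays named above, the adjusted p of *ORC1* was up to 0.00226 at EX and that of *ORC6* up to 0.00115 at EX and 0.00112 at D6.

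None of the 6 subunits of the Mcm helicase, which unwinds DNA at the fork, was called. Their log2 fold changes ran from -0.48 for *MCM7* to 0.77 for *MCM6* at EX and from -0.98 for *MCM7* to 0.47 for *MCM6* at D6. *MCM7* was at 7.72 and 7.58 in the L-UBB+1 strain, against 8.0 and 8.25 in the control strain, at EX. At D6 it was at 7.45 and 7.57, against 8.57 and 8.41. Subunits of the same ring thus had differences of opposite sign. *CDC6*, which loads the helicase, had 0.38 and 0.24, and *CDC45*, which activates it, had -0.63 and -0.78.

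At the replication fork, the sliding clamp fell and 1 polymerase subunit rose. *POL30*, which encodes the clamp PCNA that tethers polymerases to DNA, was at 7.21 and 7.70 in the L-UBB+1 strain, against 9.70 and 9.77 in the control strain, at EX. Its D6 levels were 7.62 and 7.15, against 9.68 and 9.88. Its arrays lay far apart at both phases, 4.87-fold lower at EX (log2 fold changes -2.28 and -2.40, standard error 0.20, adjusted p = 3.71e-05 and 2.82e-05 by limma). *POL12*, the regulatory subunit of polymerase alpha, was the only one of these 10 genes called higher. It was at 8.58 and 8.71 in the L-UBB+1 strain, against 7.58 and 7.64 in the control strain, at EX. The D6 values were 8.86 and 8.62, against 7.74 and 7.73, and its log2 fold change of 0.99999 missed the threshold of 1. The EX call was lost with arrays centred on their medians (0.986) and without control EX replicate 1 or 2 or L-UBB+1 EX replicate 2 (adjusted p up to 0.00136). Its partners in the same complex lay on the other side of 0. The catalytic subunit *POL1* had -0.52 and -0.68, and the primase subunits *PRI1* and *PRI2*, which make the RNA primers, had -0.78 and -0.85 at EX. *POL2* and *POL3*, the catalytic subunits of the leading and lagging strand polymerases, had 0.12 and -0.15 at EX, while their D6 values were -0.22 and -0.44. The single-strand binding subunits *RFA1* and *RFA2* had 0.28 and -0.02 at EX, and the ligase *CDC9* had -0.23.

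The genes of deoxynucleotide supply held the largest rise and several of the larger falls. *RNR3*, a large subunit of ribonucleotide reductase that is normally kept low and is induced by DNA damage, was at 9.66 and 9.61 in the L-UBB+1 strain, against 6.98 and 6.99 in the control strain, at EX. At D6 *RNR3* was at 9.70 and 9.63, against 6.89 and 6.94. Replicates lay close together, the strains far apart, and the level was 6.27-fold higher at EX (log2 fold changes 2.65 and 2.75, standard error 0.09, adjusted p = 9.97e-07 and 7.97e-07 by limma). *RNR1*, the large subunit used in ordinary S phase, was at 7.55 and 7.46 in the L-UBB+1 strain, against 8.99 and 9.22 in the control strain, at EX. At D6 *RNR1* was at 7.49 and 7.48, against 9.26 and 9.34. The large subunits therefore moved in opposite directions, with *RNR1* 3.04-fold lower at EX. The small subunits parted as well. *RNR4* was at 8.60 and 8.79 in the L-UBB+1 strain, against 10.5 and 10.53 in the control strain, at EX, 3.52-fold lower. At D6 *RNR4* was at 8.88 and 8.62, against 10.37 and 10.45. *RNR2*, which forms the small subunit with *RNR4*, was at 9.87 and 9.84 in the L-UBB+1 strain, against 10.09 and 10.20 in the control strain, at EX. At D6 *RNR2* was at 9.97 and 9.91, against 9.93 and 10.29, where the arrays overlapped, and its log2 fold changes of -0.29 (95% interval -0.59 to 0.01) and -0.17 (-0.47 to 0.13) were not called. *CDC21*, the thymidylate synthase, had log2 fold changes of -1.28 and -1.08 and was called lower at both phases. The EX call of *CDC21* was lost without control EX replicate 1 or 2 or L-UBB+1 EX replicate 1, and the D6 call without any 1 of the control arrays or without L-UBB+1 D6 replicate 2 (adjusted p up to 0.00368). Without the sets of L-UBB+1 arrays named above it was up to 0.00195 at EX and 0.00331 at D6, while *RNR1*, *RNR3* and *RNR4* stayed called, with adjusted p of at most 0.00045.

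**Figure D3:**
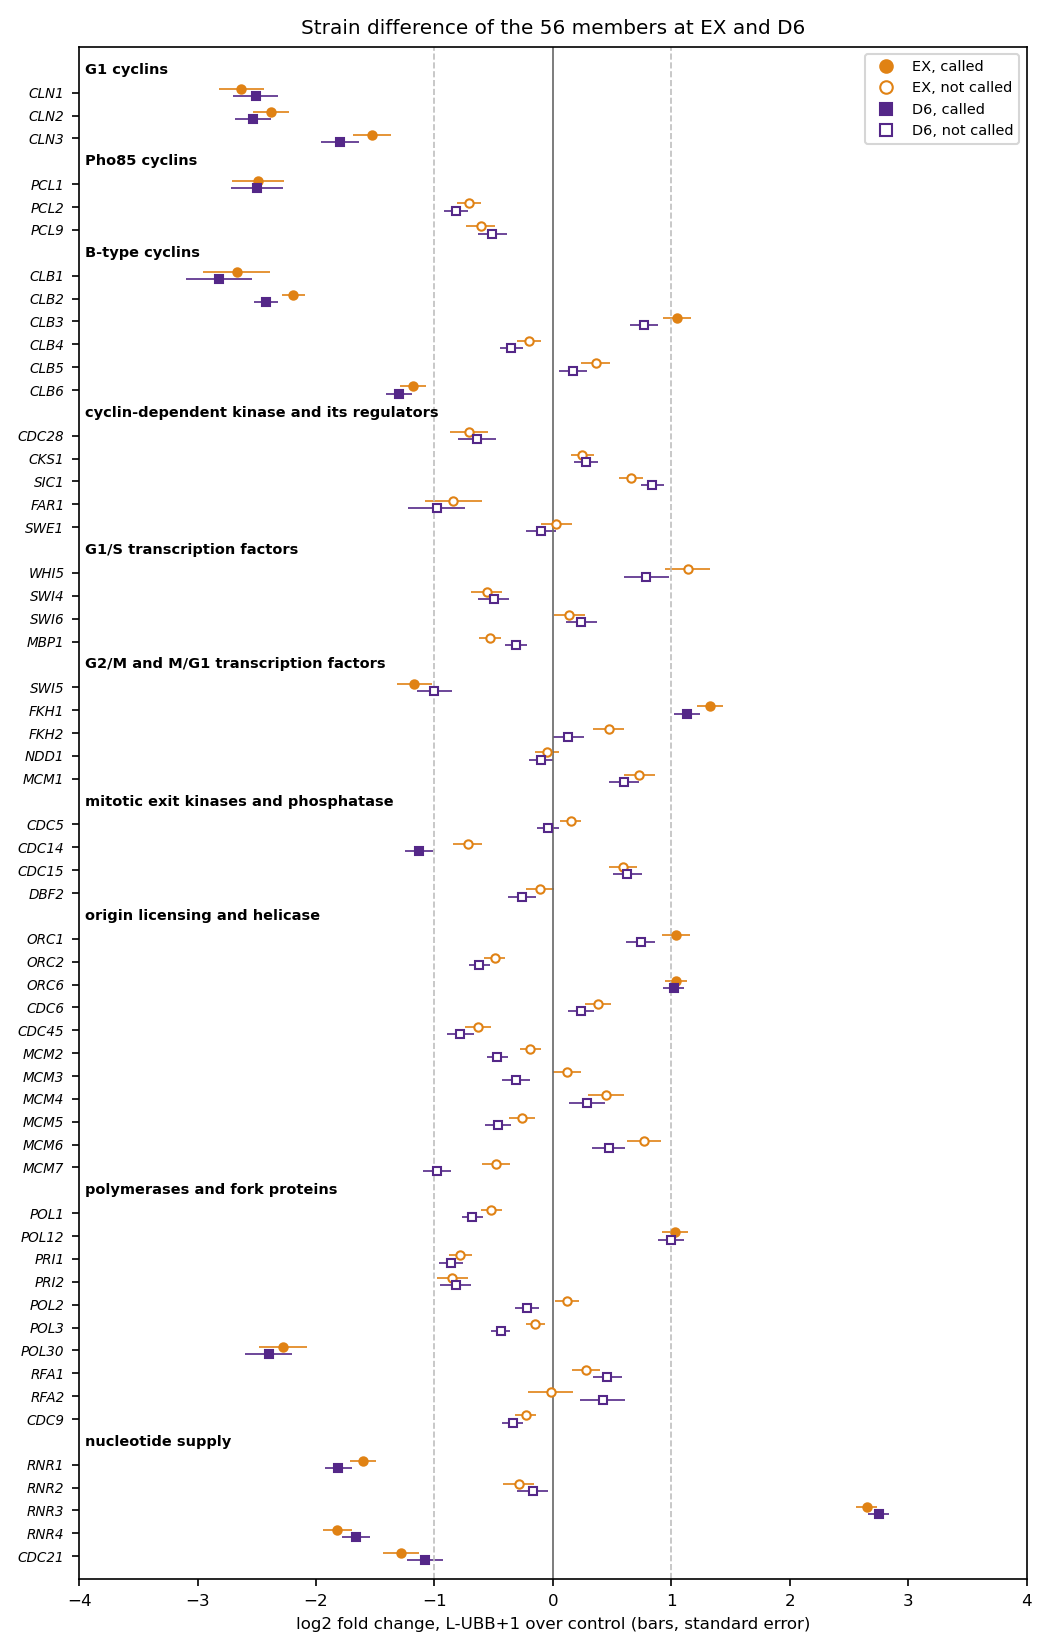
Log2 fold change of the L-UBB+1 strain over the control strain for the 56 members, grouped by role, with orange circles for EX, purple squares for D6, filled symbols for called genes and bars for the standard error. Dashed lines mark the fold threshold. *CLN1*, *CLN2*, *PCL1*, *CLB1*, *CLB2* and *POL30* lie farthest to the left, *RNR3* far to the right, and the helicase subunits lie on either side of 0.

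Some of the members can also be sorted by when in the cycle their transcripts are known to peak, which the choice of genes did not use. Of 20 members that peak at G1/S, 7 were called lower and 1 higher at EX, beside 17.1% and 17.2% of all genes. The same shares apply to the counts of the other classes. Their log2 fold changes had a median of -0.67 and a range of -2.63 to 1.03. Of 12 that peak between mitosis and G1, 1 was called lower and none higher, with a median of -0.23. Of 4 that peak in G2 and mitosis, *CLB1*, *CLB2* and *SWI5* were called lower and *CDC5* was not. The remaining 20 members were left unclassed, among them the cyclins *CLB3* and *CLB4*, the factors *FKH1*, *FKH2* and *NDD1*, and the kinase gene *DBF2*. Being left unclassed does not mean that a transcript has no peak. The 4 genes classed to G2 and mitosis are therefore not all the members that act there. The unclassed members had 5 called higher, with *CLB3* (1.05) and *FKH1* (1.33) among them, and 1 lower, and a median of 0.19. At D6 these medians were -0.80, -0.46, -1.71 and 0.19. Each class held members of both signs at EX, and within the G1/S class *CLN1* at -2.63 and *POL12* at 1.03 stood at the ends.

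Between the phases of either strain, no member was called. This was so for all genes as well, where 0% were called in each strain. In the control strain, 0 of the 56 members had an adjusted p under 0.05 by limma for D6 against EX, where 3.51% of all genes did, and 7 had an unadjusted p under 0.05, beside 27.2% of all genes. Without overlap of the arrays, 25 members lay higher and 9 lower at D6, and 65.4% of all genes had no overlap. The members' differences ran from -0.21 to 0.44, with a median of 0.09, beside 0.00 for all genes. Differences were positive for 38 of the 56 members, and for 2725 of all 5444 genes. The signs were uneven between roles, although no single difference passed the adjusted threshold. All genes of a role were read on the same arrays, so their signs are not independent, and the unevenness was not tested. All 11 genes of origin licensing and the helicase had positive differences in the control strain, between 0.04 and 0.44, and so had all 6 B-type cyclins, between 0.07 and 0.24. In contrast, 4 of 5 genes of nucleotide supply and 3 of 4 G1/S transcription factors had negative differences. The largest difference of any member in the control strain was a positive one, that of *MCM3*. It was at 8.57 and 8.32 on the control D6 arrays, against 7.91 and 8.12 on the control EX arrays (log2 fold change 0.44, unadjusted p = 0.00809, adjusted p = 0.0755 by limma). In the L-UBB+1 strain, differences ran from -0.27 to 0.23, and 0 members had an unadjusted p under 0.05, beside 0.184% of all genes. Arrays of the phases overlapped for 49 members, 2 lay higher and 5 lower at D6, and 16.7% of all genes had no overlap. Because of the close pairs of L-UBB+1 arrays described above, its phase comparison does not show that the phases are alike. For *CLN1* and *CLB2*, cyclins known to be scarce in resting cells, D6 over EX was -0.1 and 0.17 in the control strain and 0.01 and -0.06 in the L-UBB+1 strain.

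**Figure D4:**
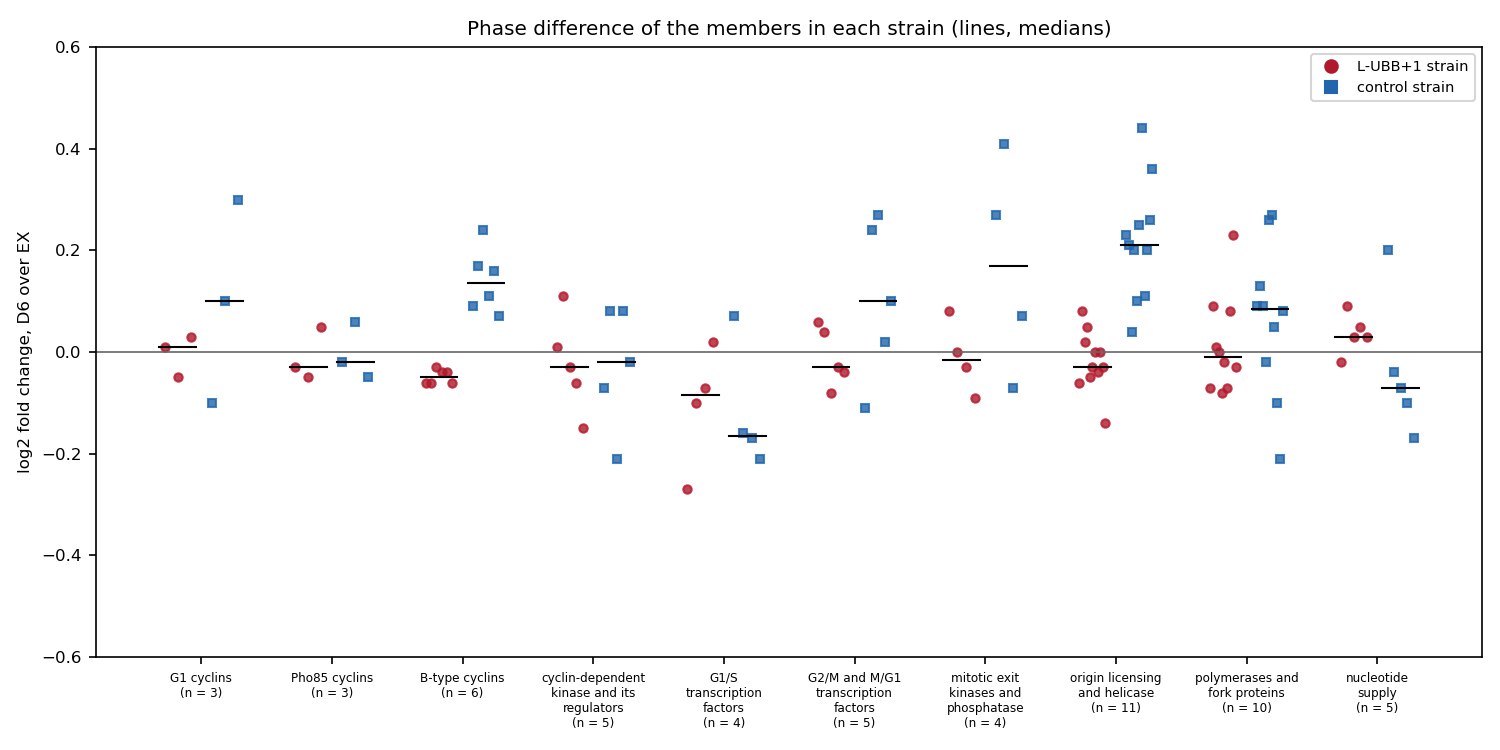
Change on the log2 scale of D6 over EX for each member in the L-UBB+1 strain (red circles) and in the control strain (blue squares), by role, with medians as black lines. All blue points of origin licensing and the helicase and of the B-type cyclins lie above 0, and no point lies beyond 0.44 in size.

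In the interaction of strain and phase, 0 of the 56 members and 0% of all genes had an adjusted p under 0.05 by limma, and 5 members had an unadjusted p under 0.05, beside 15.9% of all genes. The 3 members with the smallest p were *MCM7* (log2 fold changes -0.48 at EX and -0.98 at D6, difference -0.50, adjusted p = 0.276), *MCM3* (0.12 and -0.31, adjusted p = 0.3) and *POL2* (0.12 and -0.22, adjusted p = 0.303). A crossed replicate block, chosen after seeing the data, fits the close L-UBB+1 arrays together. It also pairs control EX replicate 1 with D6 replicate 2, and so parts the close control arrays EX replicate 2 and D6 replicate 2. With this block the call changed for *MCM7* (adjusted p = 0.0483 by limma), as it did for 7.22% of all genes. For *POL2*, both L-UBB+1 arrays were higher than both control arrays at EX, 7.98 and 7.81 against 7.79 and 7.77, and both were lower at D6, 7.78 and 7.85 against 8.07 and 8.01. Neither strain difference of *POL2* had an adjusted p under 0.05 by limma (0.307 at EX and 0.068 at D6).

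Other genes of the same pathways were called in both directions, and the shares of all genes given above (17.2% higher and 17.1% lower at EX) apply to them too. Of 36 further replication genes, 4 rose and 2 fell in the L-UBB+1 strain at EX, while 3 rose and 4 fell at D6. Among them *RFC5*, a subunit of the loader that places PCNA on DNA, fell, with log2 fold changes of -1.95 and -2.14, as did *POL30*. *DPB4*, a small subunit of polymerase epsilon, rose with log2 fold changes of 1.86 and 1.58. *TAH11*, the yeast Cdt1 that brings the helicase to origins, had 1.49 and 1.3 and was called at EX only. Of 22 further genes of kinase and G1 control that were analysed, 6 were called higher and 3 lower at each phase. *XBP1*, a repressor known from starved cells, rose with log2 fold changes of 2.45 and 2.99, *PCL10*, a Pho85 cyclin of glycogen control, with 2.18 and 2.23, and *MIH1*, the phosphatase that opposes Swe1, with 2.04 and 1.84. *XBP1* was at 9.81 and 9.99 in the L-UBB+1 strain at EX, against 7.71 and 7.18 in the control strain.

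Of 20 further genes of anaphase and mitotic exit, 6 rose and 2 fell at EX, while 5 rose and 3 fell at D6. *CDC27*, a core subunit of the anaphase-promoting complex, was at 10.56 and 10.33 in the L-UBB+1 strain, against 7.51 and 7.48 in the control strain, at EX (log2 fold changes 2.94 and 2.67, standard error 0.13, adjusted p = 2.03e-06 and 2.58e-06 by limma). *DBF20*, the paralogue of *DBF2*, rose with 1.9 and 1.89 although *DBF2* was not called, and *TEM1*, the GTPase at the head of the mitotic exit network, fell with -1.76 and -1.67. Of 11 further genes of nucleotide supply, 1 rose and 4 fell at EX, while 1 rose and 3 fell at D6. *DUT1*, the dUTPase that keeps uracil out of DNA, was at 6.70 and 6.71 in the L-UBB+1 strain, against 9.46 and 9.47 in the control strain, at EX, a log2 fold change of -2.76 (standard error 0.08, adjusted p = 8.54e-07 by limma). *DCD1*, the dCMP deaminase, and *DFR1*, dihydrofolate reductase, which both serve thymidylate synthesis together with *CDC21*, fell at EX with -1.72 and -1.54.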

How the data were processed

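Transcripts were measured on 8 Affymetrix arrays, 2 for each strain and phase. The deposited table gives each probe set as a log2 level, which the authors computed in R, using PIANO. The submitters' processing notes name R 3.2.3, while background correction, summarization and normalization were not stated in the sources used. Values entered unchanged, with array medians between 8.338 and 8.41. Of 5705 probe sets, 216 had no gene named and were left out, 12 symbols were updated by gene ID, and the brightest probe set on average stood for each of 43 genes with several, leaving 5444 genes. A model of the 4 group means was fitted in R 4.3.3 by limma 3.58.1, with 4 residual and 3.26 prior degrees of freedom, and was tested on simulated data. Fold changes are L-UBB+1 over control or D6 over EX. No filter on low levels was applied, so all 56 members were tested.

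Values on every array are given for called cyclins, regulators and factors, for the 3 largest called changes of each other role, for 8 pairs of related genes, and for label checks. Of each further list the 3 largest called changes at EX are named. The members and lists were chosen with earlier results of these data known. The replicates' deviations correlated between groups at -0.855 to 0.364 across genes, so equal replicate numbers did not pair the arrays. Alternatives covered normalization, dim genes, probe sets, arrays in the fit, the prior, the replicate block, thresholds, the methods' t-test and each array left out. The files gave no slide or scan batch, and no sequences were printed.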

Additional observations from a re-analysis of the deposited data

How the results depend on the processing

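The members called higher and lower at EX (6 and 12) and at D6 (3 and 12) kept counts within 1.5 times under a further quantile normalization, the mean of all probe sets, the 4 arrays of each comparison alone, a trended and robust prior and a looser adjusted p (0.05) at an unchanged fold threshold. No member named with a call changed sign under any alternative. With arrays centred on their medians, 2 members were called higher at EX, beside 16.2% of all genes, as 4 members lay just past the fold threshold. Without the dimmest genes (mean log2 level under 7.671), which removed 22 of the 56 members, 4 were called lower at EX and 4 at D6. The shares of all genes kept were 18.1% and 19.9%. The filter used the mean over all arrays and removed every cyclin called lower, so the falls of the cyclins were not tested under it. With no fold threshold, 7 were called higher and 20 lower at D6, beside 24.4% and 24.3% of all genes. By the methods' t-test, at an unadjusted p under 0.05 with no fold threshold, 13 were higher and 26 lower at EX, and 9 and 27 at D6. Between the phases of the control strain, 7 had such a p. The shares of all genes were 32.4% and 31.8%, 29.8% and 30.7%, and 11.6%. After Benjamini-Hochberg adjustment, again with no fold threshold, the t-test gave 20 lower at EX and 5 higher and 19 lower at D6. The shares of all genes were 26.6%, 22.4% and 22.8%. Leaving out 1 array at a time left 1 array in a group. The counts of members called changed, and so did the shares of all genes. The log2 fold change at EX then ran from -2.79 to -2.47 for *CLN1*, from 2.62 to 2.67 for *RNR3* and from 0.97 to 1.1 for *POL12*. Limma at an adjusted p under 0.05 with no fold threshold gave 15 members higher and 25 lower at EX, and 13 and 31 at D6. Of all 5444 genes, 2027 and 2039 passed at EX, and 2051 and 2089 at D6. How much of the t-test's higher counts came from the missing fold threshold was not tested. With the replicate block, 6 and 12 members were called at EX and 3 and 11 at D6. The shares of all genes were 16.3% and 16.1% at EX and 16.8% and 17% at D6. No other call was changed than that of *CDC21* at D6 (adjusted p = 0.00112 by limma). With the crossed replicate block, chosen after seeing the data, 1 member, *MCM7*, had an adjusted p of 0.0483 for the interaction, beside 393 of all genes (7.22%). Without L-UBB+1 EX 1 and D6 2 together, also chosen after seeing the data, fewer members were called in both directions at EX. Fewer of all genes were called as well, and this fit left 1 L-UBB+1 array at each phase. Levels near the lower end of the scale limit how large a fall can be measured.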
